A study of Homo sapiens with 8 samples.

Results

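The acute-phase and inflammatory genes SAA1, SAA2, IL6, LIF, IL6ST, CXCL8, CXCL1, CCL2 and PTGS2 were examined for nearby binding of TEAD and YAP in HuCCT1 cells, a line derived from a human cancer of the bile duct (cholangiocarcinoma). Peaks of chromatin immunoprecipitation and sequencing (ChIP-seq) were taken when their centre lay within 100 kb of the transcription start site (TSS) of 1 of these 9 genes. This gave 72 of the 51828 deposited peaks: 55 of 38186 TEAD1 peaks, 15 of 12188 TEAD4 peaks, 2 of 847 HA-YAP5SA peaks, 0 of 454 YAP peaks and 0 of 153 TAZ peaks. The series held 8 libraries from the 1 cell line, 1 for each antibody or control, and peak lists of 5 were used. TEAD1, TEAD4, YAP and TAZ (the product of WWTR1) were each precipitated with an antibody to the protein, and HA-YAP5SA, a YAP form with serines changed to alanine, through its HA tag. The design names input, IgG and GFP libraries for background, and they were not used here. The labels give neither how the tagged form was delivered nor whether the cells of the YAP library carried it. The sample titles do not say this for the TEAD1, TEAD4 and TAZ libraries either. There were no replicates and the sequencing depth of each list is unknown, so the values below describe these libraries and no difference was tested. The peaks were selected on their position beside these genes, and the genes were chosen with earlier results of these lists known, so the positions and counts are a description.

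The Hippo pathway acts on the coactivators YAP and TAZ, which lack a DNA-binding domain and are brought to enhancers and promoters mostly by TEAD factors. SAA1 and SAA2 encode serum amyloid A, an acute-phase protein made by the liver and by epithelia under the control of inflammatory cytokines. IL6 and LIF are cytokines that signal through receptors sharing the subunit encoded by IL6ST, and through them to STAT3. CXCL8 and CXCL1 attract neutrophils, CCL2 attracts monocytes, and PTGS2 is the inducible cyclooxygenase of prostaglandin synthesis. Many of these genes are also known targets of NF-kB, AP-1 and C/EBP factors.

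TEAD1 was present near all 9 genes, TEAD4 near 7 and HA-YAP5SA near 2, SAA1 and SAA2, which share the same peaks. TEAD1 was present in 69.5% of the 200 kb windows tiled between its first and last peak on each chromosome. TEAD4 was present in 40.1% of these same windows and HA-YAP5SA in 5.07%. The 9 genes form 7 loci, because the start sites of SAA1 and SAA2 lie 17.6 kb apart and those of CXCL8 and CXCL1 lie 129 kb apart. These joined loci are wider than the window of a single gene, so counts by locus are not from equal lengths. Distinct TEAD1 peaks numbered 17 at the CXCL8 and CXCL1 locus, 12 at LIF, 8 each at IL6 and IL6ST, 6 at SAA1 and SAA2, 3 at PTGS2 and 1 at CCL2. TEAD4 peaks numbered 5 at the CXCL8 and CXCL1 locus, 5 at LIF, 2 each at IL6 and IL6ST, 1 at SAA1 and SAA2, and 0 at CCL2 and PTGS2. The loci also hold other genes, and nearness does not say which gene a site acts on.

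**Figure D1:**
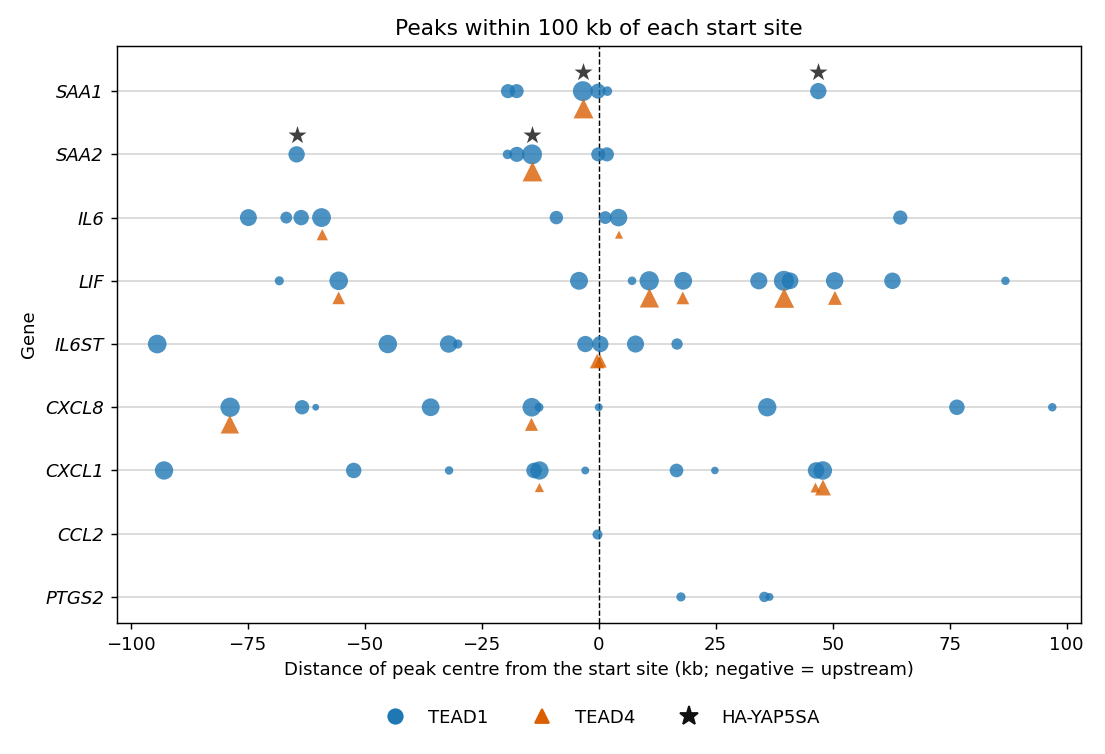
Distance in kb of each peak centre from the start site of each gene, with upstream to the left. Circles are TEAD1 and triangles TEAD4, larger for a higher percentile within their list, and stars are HA-YAP5SA, whose size is fixed. LIF has the most TEAD1 peaks of a single window, 12, and CCL2 has 1.

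The strongest HA-YAP5SA signal among these genes lay between SAA2 and SAA1. The genes run away from each other on chromosome 11 (hg19 start sites 18287808 on the plus strand for SAA1 and 18270217 on the minus strand for SAA2), so this site is upstream of both. The HA-YAP5SA peak at chr11:18284158-18284766 had a score of 983, the second highest of the 847 in that list. Its centre lay 3.35 kb upstream of SAA1 and 14.2 kb upstream of SAA2. The score is the authors' own value for each peak, on a scale that is not stated, and is used here only to rank peaks within a list. The TEAD1 peak there (chr11:18284043-18284845) scored 1960 and ranked 137 of 38186. The TEAD4 peak (chr11:18284108-18284736) scored 1134 and ranked 105 of 12188. The centres of the HA-YAP5SA and TEAD1 peaks were 18 bp apart, and those of the HA-YAP5SA and TEAD4 peaks 40 bp apart. The site stood at a percentile (the share of the list with a lower score) of 99.8 in the HA-YAP5SA list, 99.6 in the TEAD1 list and 99.1 in the TEAD4 list. Among the 10 highest HA-YAP5SA peaks, the third lay on no TEAD1 peak, and the other 8 besides the SAA site lay on TEAD1 peaks ranked between 1 and 164. The antibody against YAP gave no peak here, and the nearest YAP peak lay 14.6 Mb from SAA1.

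Smaller TEAD1 peaks covered both SAA start sites and lay at like distances from them. At SAA1 the peak centres were 117.5 bp upstream and 1.87 kb downstream of the start, with scores of 188 and 97.4. At SAA2 they were 75 bp upstream and 1.77 kb downstream, with scores of 159 and 160. All 250 bp before each start were inside a TEAD1 peak and none of them inside a TEAD4 or HA-YAP5SA peak. SAA1 and SAA2 are closely similar copies, and how reads matching both were treated is not given in the sources used here, so their part in this likeness was not tested. A second HA-YAP5SA peak lay 46.9 kb downstream of SAA1 (chr11:18334619-18334781, score 101, rank 545 of 847). It overlapped a TEAD1 peak of score 243 and no TEAD4 peak, as did 2.95% of all HA-YAP5SA peaks (25 of 847). In the RefSeq order of genes, HPS5 and GTF2H1 follow SAA1 on that side.

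**Figure D2:**
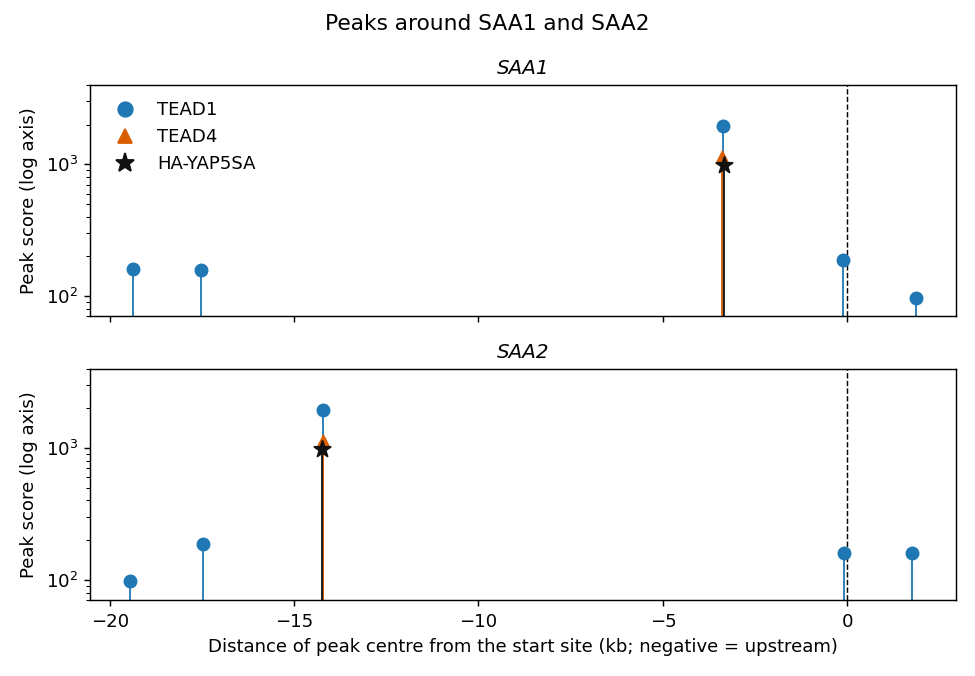
Peak score on a log axis against the distance in kb from the start sites of SAA1 (top) and SAA2 (bottom), within 25 kb. The same 7 peaks appear in both panels, turned round because the genes lie on opposite strands. The shared site stands at scores of 1960 for TEAD1, 1134 for TEAD4 and 983 for HA-YAP5SA, and the other TEAD1 peaks lie between 97.4 and 188.

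LIF, on chromosome 22 (hg19 start site 30642796, minus strand), had the TEAD peaks with the highest scores of the 9 genes and no HA-YAP5SA peak. Its top TEAD1 peak (chr22:30602769-30603659) scored 2912 and ranked 23 of 38186. The TEAD4 peak on it (chr22:30602798-30603492) scored 1719 and also ranked 23, of 12188. This site lay 39.6 kb downstream of the start, on the side where HORMAD2 is the next protein-coding gene. It ranked above the SAA site in both TEAD lists, yet the HA-YAP5SA peak nearest to the LIF start was 2.79 Mb from that start. Of the 23 TEAD1 peaks with at least the score of the LIF peak, 18 overlapped HA-YAP5SA (78.3%). Of the 137 with at least the score of the SAA peak, 107 did (78.1%). The LIF peak was the fifth in score among the 37399 TEAD1 peaks without HA-YAP5SA, and the TEAD4 peak was the fifth among the 11423 TEAD4 peaks without it. For TEAD4, HA-YAP5SA was present at 18 of the 23 peaks down to the LIF peak (78.3%) and at 87 of the 105 down to the SAA peak (82.9%).

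A second strong LIF site lay 10.8 kb downstream of the start. TEAD1 there scored 728 (chr22:30631598-30632369, rank 2903) and TEAD4 scored 528 (chr22:30631579-30632294, rank 870). The remaining 10 TEAD1 peaks at LIF scored between 89.98 and 491, and the remaining 3 TEAD4 peaks between 124 and 146. Nearest to the LIF start was a TEAD1 peak 4.18 kb upstream (score 379) without TEAD4. Of the 12 TEAD1 peaks, 9 lay downstream of the start and 3 upstream, on the side of OSM, the next gene, which encodes a related cytokine. All 5 TEAD4 peaks at LIF overlapped TEAD1.

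IL6, on chromosome 7 (hg19 start site 22766766, plus strand), had 8 TEAD1 and 2 TEAD4 peaks, with lower scores. The highest was a TEAD1 peak 59.2 kb upstream (chr7:22707159-22707968, score 562, rank 4620), which overlapped a TEAD4 peak of score 110. The TEAD1 peak nearest to the start was centred 1.43 kb downstream (score 133). A TEAD1 peak 4.26 kb downstream (score 336) overlapped a TEAD4 peak of score 87.1, ranked 11286 of 12188. Both TEAD4 peaks at IL6 were low in their list, at percentiles of 24.8 and 7.23. IL6 was nearer to HA-YAP5SA than the other genes apart from SAA1 and SAA2. Outside its window, 150 kb upstream, an HA-YAP5SA peak (chr7:22617037-22617204) scored 84.5 and ranked 746 of 847, on both TEAD1 and TEAD4.

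IL6ST, on chromosome 5 (hg19 start site 55290821, minus strand), also had 8 TEAD1 and 2 TEAD4 peaks, and its start site lay between peaks. On the downstream side a TEAD1 peak (chr5:55290111-55290790, score 239) ended 31 bp from the start and overlapped a TEAD4 peak of score 129. On the upstream side a second TEAD4 peak (chr5:55290860-55291409, score 156) began 39 bp from the start and covered 212 of the 250 bp before it. This TEAD4 peak overlapped no TEAD1 peak, the single such case among the 15 TEAD4 peaks, against 2.90% of the whole TEAD4 list (353 of 12188). The gap between it and the TEAD1 peak was 69 bp. IL6ST was the 1 gene of the 9 with TEAD4 inside the 250 bp before its start. The highest TEAD1 peak at IL6ST was the farthest, 94.3 kb upstream (score 519, rank 5246), and carried no TEAD4. It was also the widest of the 55 TEAD1 peaks, at 1169 bp, against a median of 555 bp for these 55 peaks and 552 bp for the whole list.

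The 250 bases before the RefSeq start of IL6ST (GRCh38.p14, chr5:55994964-55995213, minus strand) are shown because the TEAD4 peak without TEAD1 lies over the same promoter in hg19. Capitals mark 3 overlapping matches to a loose form of the NF-kB motif, GGG and CC with any 5 bases between them, searched on both strands. It is found in 54.4% of 35116 promoters of the same length. RefSeq starts in GRCh38 were not matched base by base to the hg19 start sites.
IL6ST: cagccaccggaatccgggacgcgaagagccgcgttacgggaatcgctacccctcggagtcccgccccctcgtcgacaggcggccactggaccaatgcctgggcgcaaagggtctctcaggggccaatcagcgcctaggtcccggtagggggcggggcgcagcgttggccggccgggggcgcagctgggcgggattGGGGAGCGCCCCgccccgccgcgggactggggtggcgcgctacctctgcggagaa
No match was found here to GGAATG, the core of the TEAD motif (11.9% of promoters), to the AP-1 motif TGANTCA (6.57%) or to the C/EBP motif TTGCNNAA (9.05%). This says only that these letters are not in this window.

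CXCL8 and CXCL1, on chromosome 4 (hg19 start sites 74606223 and 74735109, both plus strand), differed at their start sites. A TEAD1 peak covered the CXCL8 start (chr4:74606068-74606442) and 155 of the 250 bp before it. Its score of 87.2 gave it a percentile of 6.81 in the TEAD1 list, and it carried no TEAD4. At CXCL1 the nearest TEAD1 peak ended 2699 bp upstream of the start, with a score of 87.0. Each gene had 10 TEAD1 peaks in its window, of which they shared 3. The highest at CXCL8 lay 78.7 kb upstream (score 815, rank 2338) and overlapped a TEAD4 peak of score 351. RASSF6 is the next protein-coding gene on that side. The highest at CXCL1 lay 47.9 kb downstream (score 481, rank 5843) and overlapped a TEAD4 peak of score 193. A TEAD1 peak 14.3 kb upstream of CXCL8 (score 513) and one 12.6 kb upstream of CXCL1 (score 436) overlapped TEAD4 peaks of scores 131 and 93.0. CXCL6 and PF4V1 lie between CXCL8 and CXCL1 in the RefSeq order. Strong and weak TEAD1 peaks were mixed along the locus, from a score of 82.1, at a percentile of 1.91, up to 815.

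The 250 bases before the RefSeq starts of CXCL8 (GRCh38.p14, chr4:73740319-73740568, plus strand) and CXCL1 (GRCh38.p14, chr4:73869143-73869392, plus strand) are shown together because a TEAD1 peak lay over the start of one gene and not of the other. Capitals mark matches to the motifs named here. The distance between these RefSeq starts is not the same as that between the hg19 start sites. The bases printed here therefore need not be the same bases as those counted before the hg19 starts for peak cover.
CXCL8: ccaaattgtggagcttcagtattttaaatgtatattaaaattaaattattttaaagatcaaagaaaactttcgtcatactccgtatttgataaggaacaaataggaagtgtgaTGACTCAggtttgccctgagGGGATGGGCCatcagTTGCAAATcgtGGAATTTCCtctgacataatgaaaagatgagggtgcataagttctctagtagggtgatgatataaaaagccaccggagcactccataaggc
CXCL1: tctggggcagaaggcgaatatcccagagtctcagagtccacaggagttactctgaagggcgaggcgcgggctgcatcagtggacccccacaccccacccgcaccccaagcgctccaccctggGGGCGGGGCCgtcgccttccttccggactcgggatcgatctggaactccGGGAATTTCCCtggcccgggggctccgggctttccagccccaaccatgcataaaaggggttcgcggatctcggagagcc
CXCL8 holds TGACTCA, a match to the AP-1 motif TGANTCA, 137 bases before the start, and CXCL1 holds none. Both hold GGAATTTCC, a form of the NF-kB site, 91 bases before the start in CXCL8 and 78 in CXCL1, which 0.413% of promoters hold. CXCL8 alone of the pair holds TTGCAAAT, which resembles the C/EBP motif and is present in 0.763% of promoters. Neither promoter holds a match to TTGCNNAA, the planned C/EBP motif (9.05% of promoters). GGAATTTCC and TTGCAAAT were added to the search after the CXCL8 promoter had been read, and in CXCL1 GGAATTTCC lies inside a match to the loose NF-kB motif. CXCL8 has 1 match to the loose motif and CXCL1 has 3, of which those at 79 and 78 bases overlap in the stretch GGGAATTTCCC. Neither promoter holds GGAATG. The promoters of IL6 and PTGS2, searched and not shown, hold neither GGAATG nor TGANTCA. Each has 3 matches to the loose NF-kB motif and 1 to TTGCNNAA. A link between these motifs and TEAD1 peaks was not tested.

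CCL2 and PTGS2 had the fewest peaks, and the best TEAD1 peak of each ranked below the best of the other genes. The window of CCL2, on chromosome 17 (hg19 start site 32582296, plus strand), held 1 TEAD1 peak (chr17:32581780-32582217, score 101, rank 31604). It ended 79 bp upstream of the start and covered 172 of the 250 bp before it. The next TEAD1 peak lay 827 kb from the start, so this peak stood alone beside the start of the gene. The nearest TEAD4 peak was 367 kb away. PTGS2, on chromosome 1 (hg19 start site 186649559, minus strand), had 3 TEAD1 peaks, 17.6, 35.4 and 36.5 kb downstream, with scores of 94.7, 104 and 86.8. None lay upstream, and all 3 were below the 20th percentile of the TEAD1 list, with the highest at 19.3. The nearest TEAD4 peak to PTGS2 lay 468 kb from the start.

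TEAD1 edges lay within 100 bp of the start of 5 of the 9 genes: the peak covered the start at SAA1, SAA2 and CXCL8, and ended beside it at IL6ST and CCL2. These 5 peaks had scores of 188, 159, 87.2, 239 and 101, at percentiles of 52.8, 44.4, 6.81, 63.0 and 17.1. The 4 TEAD1 peaks of the top score decile lay farther from a start, 3.36 kb from SAA1, 10.8 and 39.6 kb from LIF and 78.7 kb from CXCL8. TEAD4 covered no start site. The share of all hg19 start sites with such a peak was not computed, because an hg19 annotation was not used here.

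**Figure D3:**
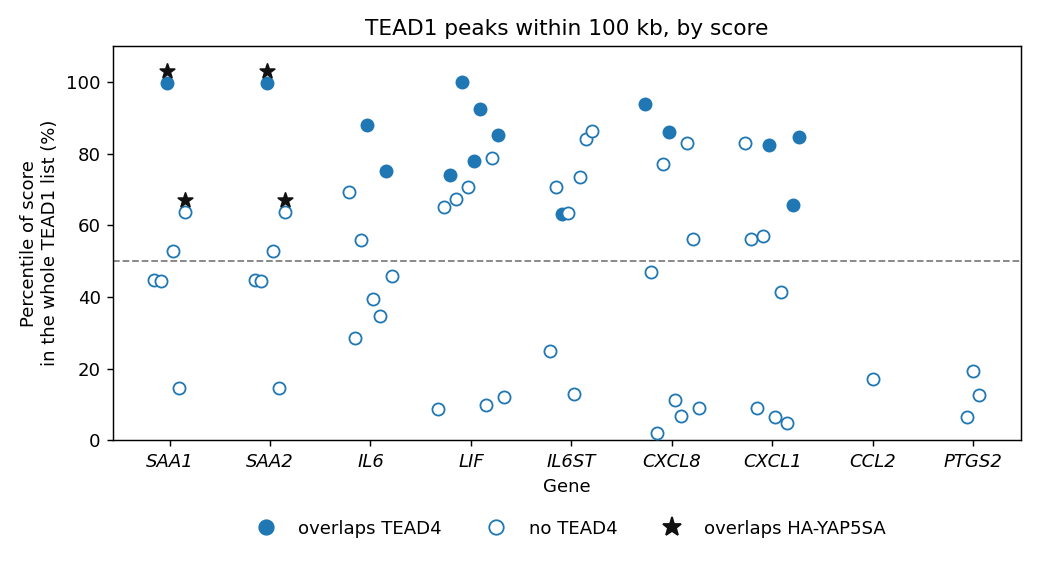
Percentile of the score in the whole TEAD1 list for each TEAD1 peak within 100 kb of each gene, left to right by position on the chromosome. Filled circles overlap TEAD4, open circles do not, stars mark overlap with HA-YAP5SA, and the dashed line is the list's median. SAA1 and SAA2 show the same 6 peaks and CXCL8 and CXCL1 share 3, and all peaks of CCL2 and PTGS2 are under 20.

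Across the 55 TEAD1 peaks the scores covered nearly the whole range of the list. Their median percentile was 57.1, with quartiles at 18.2 and 77.6, against 50 by construction for the whole list. The highest score decile held 4 of them (7.27%, exact interval 2.02 to 17.6%), against 10.0% of the list: the 2 LIF sites named above, the SAA site and the upstream CXCL8 site. The 15 TEAD4 peaks had a median percentile of 36.9. Of the 55 TEAD1 peaks, 37 had another TEAD1 centre within 10 kb (67.3%, 53.3 to 79.3%), against 46.3% of all TEAD1 peaks. Intervals are at 95%, cover counting error only, and treat neighbouring peaks as independent, which they are not.

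TEAD4 overlapped 14 of the 55 TEAD1 peaks (25.5%, interval 14.7 to 39.0%), against 30.6% of all TEAD1 peaks, by at least 1 bp. The shares were close to each other, and the interval holds the share of the whole list. Median TEAD1 scores were 486 at the 14 peaks that met TEAD4 and 159 at the 41 that did not. The same split of the whole TEAD1 list gave 452 with TEAD4 and 136 without. All 4 TEAD1 peaks of the highest decile carried TEAD4, against 97.0% of that decile in the whole list. Below that decile TEAD4 was present at 10 of 51 (19.6%), against 23.2% of the list. The highest TEAD1 percentile without TEAD4 was 86.3, at the far upstream IL6ST site, and the lowest with TEAD4 was 63.0, at the IL6ST start. The centres of the 14 pairs lay a median of 58.8 bp apart, from 7.5 bp at a LIF site to 158 bp at IL6.

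At 13 of these 14 sites the TEAD1 peak had a higher percentile in its list than the TEAD4 peak in its own, against 93.3% of all 11841 pairs of overlapping TEAD1 and TEAD4 peaks, a share near that of these sites. The exception was the LIF site 10.8 kb downstream, at 92.4 in TEAD1 and 92.9 in TEAD4. The strongest SAA and LIF sites were above the 99th percentile in both lists. At IL6 the pair 59.2 kb upstream stood at 87.9 in TEAD1 and 24.8 in TEAD4. The lists have different lengths, so percentiles compare places in each list and not amounts bound.

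**Figure D4:**
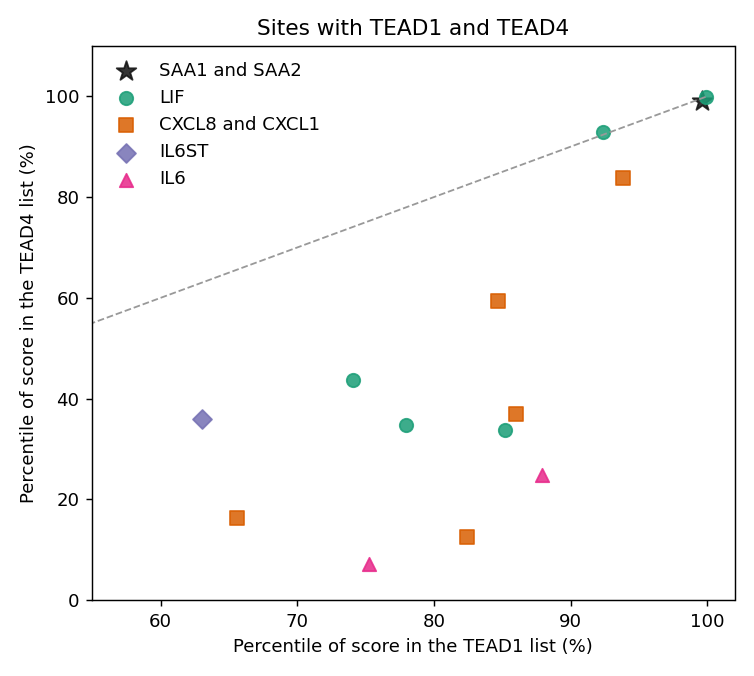
Percentile of score in the TEAD4 list (vertical) against that in the TEAD1 list (horizontal) for the 14 sites of these genes with both, coloured by locus. The dashed line marks equal percentiles. The SAA site and 2 LIF sites lie by the line at the upper right, and the IL6 sites are at 24.8 and 7.23 in TEAD4.

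HA-YAP5SA overlapped 2 of the 55 TEAD1 peaks (3.64%, interval 0.443 to 12.5%), against 2.06% of the whole TEAD1 list, and 1 of the 15 TEAD4 peaks (6.67%, 0.169 to 31.9%), against 6.28%. Among the 4 TEAD1 peaks of the highest decile it overlapped 1, against 17.3% of that decile in the whole list. Both shares lay near those of the whole lists, and both overlaps came from the SAA locus. YAP overlapped 0 of the 55, against 0.210% of all TEAD1 peaks. In the whole TEAD1 list of 38186, 80 peaks overlapped YAP and 787 overlapped HA-YAP5SA. A TEAD1 peak without YAP is therefore the usual case in these lists and not particular to these genes. The nearest YAP peak was 1.29 Mb away at IL6ST and between 6.34 and 21.8 Mb away at the other genes. The nearest TAZ peak was 2.51 Mb away at LIF and between 5.85 and 65.2 Mb away at the others. None of these nearest TAZ peaks overlapped a TEAD1 or TEAD4 peak. A place with no peak is one with no peak of score 80 or more in that list, and the depth behind that limit is unknown. The nearest HA-YAP5SA peaks to IL6ST, CCL2, PTGS2, LIF, CXCL1 and CXCL8 lay 284 kb, 896 kb, 2.34 Mb, 2.79 Mb, 4.36 Mb and 4.49 Mb away, with scores from 88.4 to 113.

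The number of peaks per window was set beside 200 kb windows tiled along chromosomes 1 to 22 and X. The 10250 tiled windows with at least 1 TEAD1 peak held a median of 3 TEAD1 peaks (quartiles 2 and 5) and 1 TEAD4 peak. LIF, with 12 TEAD1 and 5 TEAD4 peaks, had more TEAD1 peaks than 97.8% of these windows and more TEAD4 peaks than 96.1%. CXCL8 and CXCL1, with 10 TEAD1 peaks each, had more than 95.2%, and IL6 and IL6ST, with 8 each, more than 89.6%. SAA1 and SAA2, with 6, had more than 79.0%, PTGS2 more than 43.3%, and CCL2 had the lowest possible number, 1. TEAD4 was present in the windows of 7 of the 9 genes, or at 5 of the 7 loci, against 57.3% of tiled windows. HA-YAP5SA was present at 1 of the 7 loci, against 7.21% of tiled windows. YAP was present at none, against 0.985%, and TAZ at none, against 0.293%. Tiled windows are not centred on genes, and the joined loci, SAA1 with SAA2 and CXCL8 with CXCL1, are wider than 200 kb. These shares are therefore a background and not a match for the width or gene content of the loci.

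**Figure D5:**
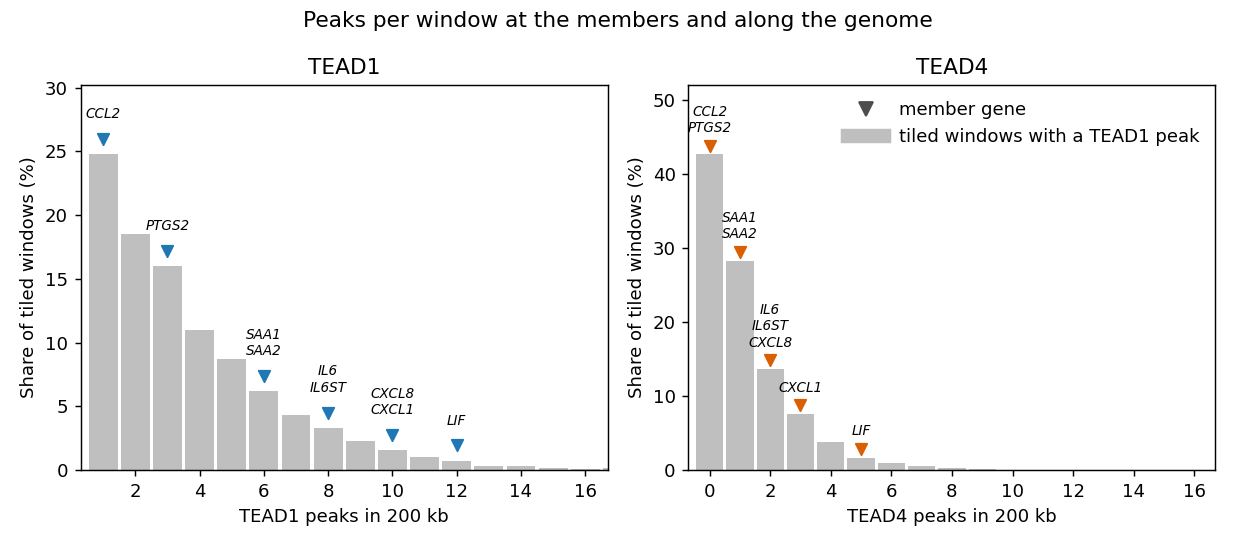
Share of tiled 200 kb windows in percent (grey bars) by their number of TEAD1 peaks (left) and TEAD4 peaks (right), for windows with at least 1 TEAD1 peak; the TEAD1 axis stops short of the highest count, 30. Triangles mark the number at each gene and stand above the bar of that number. LIF lies farthest to the right in both panels, at 12 and 5.

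By lists present and number of peaks, SAA1 and SAA2 were alike because their windows hold the same peaks. Of genes that share no peak, IL6 and IL6ST were most alike, with 8 TEAD1 and 2 TEAD4 peaks each and no other list. CXCL8 and CXCL1, which share 3 TEAD1 peaks, followed, with 10 TEAD1 peaks each and 2 and 3 TEAD4 peaks. CCL2 and PTGS2 had TEAD1 alone. By the best TEAD1 rank the order was LIF (23), SAA1 and SAA2 (137), CXCL8 (2338), IL6 (4620), IL6ST (5246), CXCL1 (5843), PTGS2 (30822) and CCL2 (31604). By the best TEAD4 rank it was LIF (23), SAA1 and SAA2 (105), CXCL8 (1971), CXCL1 (4953), IL6ST (6340) and IL6 (9158). The first 3 places were the same in both lists. With 1 library per list, whether neighbours in these orders differ cannot be said. Of all peaks counted, the one farthest from its nearest start was the TEAD1 peak 94.3 kb from IL6ST (score 519). The nearest TEAD1 peak left out was 104 kb from SAA2 (score 516), beside a TEAD4 peak of score 92.3.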

How the data were processed

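Chromatin of HuCCT1 cells was fixed with formaldehyde, sonicated and precipitated, per the labels' protocols. Bowtie2 and hg19 are named in the submitters' processing notes. Peak names begin with MACS, per the file headers and rows. No caller version, threshold or control is given in the sources used here. The lists used here were deposited as 1 per library, with a score for each peak on a scale that is not stated, so scores were ranked within a list only. Lists reflect precipitation, depth, control and threshold together.

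Starts in the lists without a header were taken as 0-based and raised by 1, which leaves them unsure by 1 bp. The hg19 start sites were those given with the gene choice. Strands came from RefSeq for 5 genes and from general knowledge for SAA1, SAA2, LIF and CCL2. Peaks belonged to a gene when their centre lay within 100 kb, and overlap meant at least 1 bp. Intervals are exact Clopper-Pearson. No test was run. Members and lists were chosen with earlier results of these data known. Peaks named were, by locus and list, the highest and the nearest to the start, all HA-YAP5SA peaks with the TEAD peaks they overlap, and all covering a start; others are given as further examples, chosen after their values were seen. Promoters were found for 5 of 9 genes. The planned count at other cytokine genes needed an hg19 annotation and was not run. Overlap and window steps were tested on simulated data. Calculations used pandas 2.3.3, NumPy 2.4.6 and SciPy 1.17.1 under Python 3.11.15, with figures by matplotlib 3.10.9.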

Additional observations from a re-analysis of the deposited data

How the results depend on the processing

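With windows reaching 200 kb to each side of the start, the TEAD1 and TEAD4 peaks numbered 85 and 25. With 10 kb to each side, a setting added after the data were seen, they numbered 16 and 4, with 1 HA-YAP5SA peak. With peaks under their list's median score left out there were 31 TEAD1, 5 TEAD4 and 1 HA-YAP5SA peak, with median percentiles of 75.2 for TEAD1 and 92.9 for TEAD4; this follows from leaving out the lower scores. In that setting the share of TEAD1 peaks with TEAD4 was 16.1% and the share of TEAD4 peaks with HA-YAP5SA was 20.0%, 1 peak of 5, inside intervals that are wide. Over all tiled windows, 200 kb in full width, between the first and last TEAD1 peak of a chromosome, 40.1% held TEAD4 and 5.07% HA-YAP5SA. Windows without TEAD1 were then included. The other 83 of 95 alternative values were close to those reported, with the shares of 16.1% and 20.0% among them. The 83 also include YAP and TAZ counts of 0 set beside 0, and small changes such as 1 bp in the starts. Their number is therefore not a measure of how robust the results are. Close meant within 1.5 times a count, or inside the interval of a share or median percentile. The intervals of the median percentiles and of the tiled shares are not printed here. The TEAD4 median percentile, 36.9 as reported, was 48.0 with 200 kb to each side and was counted as close. These 83 values covered windows reaching 50 kb to each side, peaks by any base, starts as written, stricter overlap, centres within 500 bp and shifted tiles. YAP and TAZ stayed at 0 peaks under each window tried. No paired analysis was possible because each antibody has 1 library and no test was made. Depth is unknown for every list, which limits what a missing peak can show.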
